A study of Homo sapiens with 6 samples.

Results

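Small nucleolar RNAs (snoRNAs) were read on this expression array by 280 probes whose platform gene symbol begins with SNORD (box C/D class, 178 probes) or SNORA (box H/ACA class, 102 probes). The members described here were the 110 of these probes, for 109 symbols, that had a detection p-value under 0.01 on at least 1 of 6 arrays, out of 47323 probes in all. They comprised 56 box C/D and 54 box H/ACA probes. The other 170 snoRNA probes were not detected on any array. The members were chosen by these detection p-values, so detection counts are given as a description, without a test.

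snoRNAs are short noncoding RNAs that work in the nucleolus and in most cases guide the chemical modification of ribosomal RNA. Box C/D snoRNAs bind the proteins fibrillarin, NOP56, NOP58 and SNU13 and direct methylation of ribose, whereas box H/ACA snoRNAs bind dyskerin, NHP2, NOP10 and GAR1 and direct the conversion of uridine to pseudouridine. A few, among them U3, U13, U14 and U17, are needed for the cutting or acetylation of precursor ribosomal RNA. Most human snoRNAs are cut out of introns of other genes, their hosts, many of which are ribosomal protein genes or long noncoding RNA genes.

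The study placed a control vector, pSin-E2F-GFP-puro, or an LZTFL1 vector, pSIn-E2F-LZTFL1-ires-GFP-puro, in 2 established human lung cancer lines, HCC95 (squamous cell carcinoma) and H460 (large cell carcinoma), so that all cells carried a vector with GFP. LZTFL1 is a leucine zipper protein that acts in the traffic of cilium proteins. The 6 groups were HCC95 with GFP, HCC95 with LZTFL1, each of these also treated with TGFβ, H460 with GFP and H460 with LZTFL1; H460 was not treated. Each group had 1 array of total RNA, labelled with biotin. The labels give no TGFβ dose or time, and do not say whether vector cells were clones or pools. Below, values in pairs give GFP first and LZTFL1 second, and a level is a quantile-normalized log2 intensity of 1 probe.

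Probe signals had medians between 104 and 125 and between 14136 and 16423 probes were detected per array, with the fewest on the arrays labelled TGFβ. KRT5, a keratin of squamous cells, was at 12.94 to 13.04 on the HCC95 arrays and was not detected in H460, which also had no detected EPCAM or CDH1 but did have the epithelial keratin KRT8 (10.60 and 10.40). PTPRC, of white blood cells, and PECAM1, of endothelium, were detected on none of the arrays. The stroma markers COL1A1 (5.43 and 5.72) and COL1A2 (5.57 and 5.43) were detected only on the untreated HCC95 arrays. The lowest detected values of these arrays were 5.38 and 5.33. The LZTFL1 probe went against its label in HCC95: it was at 5.75 and 5.07 untreated and 5.40 and 5.07 with TGFβ, detected only in untreated cells with GFP, and in H460 it was at 6.36 and 6.39. PMEPA1, a textbook target that TGFβ raises, was lower on the arrays labelled TGFβ (7.16 and 6.21) than on the untreated HCC95 arrays (9.38 and 9.53). Whether the probe reads the vector transcript is not known, and arrays are named by their labels throughout.

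Of the box C/D probes 31.5% were detected on at least 1 array, against 52.9% of the box H/ACA probes and 42.5% of all probes. Among 24 probes for small Cajal body RNAs (SCARNA), which guide modification of spliceosomal RNA, 14 were detected, and among 561 microRNA gene probes 44 were. Of the members, 63 were missed on at least 1 array: 23 box C/D and 24 box H/ACA probes were detected on all 6 arrays, and 10 and 7 on a single array. Members just inside the threshold were SNORD114-2, whose lowest detection p-value was 0.00909, and SNORD7, SNORA17A, SNORA70B and SNORA71A (0.00779 each). Just outside lay SNORD35A (0.0104), SNORD14B and SNORA5C (0.0130 each), SNORA48 (0.0156) and SNORA11 (0.0182).

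Box C/D members detected numbered 40 and 44 on the untreated HCC95 arrays, 34 and 34 on those labelled TGFβ, and 37 and 47 in H460. For box H/ACA the counts were 41 and 43, 28 and 35, and 35 and 42. In each context the LZTFL1 array had at least as many detected members of either class as the GFP array, and it also had more detected probes in all (16423 against 16067, 14232 against 14136, and 16038 against 14715). Whether the total sets the snoRNA count was not tested.

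**Figure D1:**
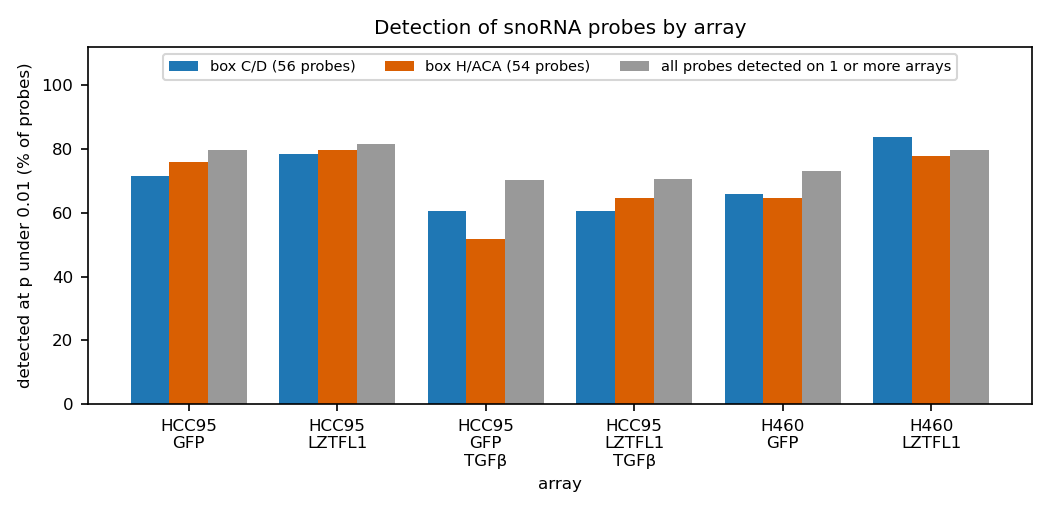
Share of probes detected at p under 0.01 on each of the 6 arrays (y axis, percent), for the 56 box C/D members, the 54 box H/ACA members and all 20121 probes detected on at least 1 array; each bar is 1 array. On the array of HCC95 with GFP and TGFβ the shares are 60.7% and 51.9%, where all probes reach 70.3%.

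snoRNA probes were dim. The mean level over the 6 arrays had a median of 5.90 for box C/D and 5.99 for box H/ACA members, against 6.75 for all detected probes, and the lowest detected value of an array lay between 5.33 and 5.70. Over all members, undetected values included, the box C/D median minus the box H/ACA median was 0.11 and 0.04 on the untreated HCC95 arrays, 0.08 and -0.04 on those labelled TGFβ, and -0.02 and -0.02 in H460. Over members detected on all 6 arrays it was 0.02 and 0.24, 0.15 and 0.19, and -0.15 and -0.01. An intensity depends on the probe as well as on the RNA, so the order of intensities below is not an order of abundance. The genes were of unlike length, with a median of 77 bases for box C/D and 134 for box H/ACA in the RefSeq table.

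SNORA12 had the highest mean intensity of box H/ACA, 9.52 and 9.65 in untreated HCC95, 9.58 and 9.91 with the TGFβ label, and 8.08 and 8.88 in H460. All 4 HCC95 values lay above both H460 values. SNORA61 was at 8.23 and 8.32, 8.35 and 8.24, and 8.92 and 8.76, with H460 the higher. SNORA67 differed little between arrays, from 7.94 to 8.41, and SNORA18 ranged from 7.68 to 8.49. SNORA10 and SNORA70, a pseudouridylation guide for small-subunit ribosomal RNA, were higher in H460 (8.53 and 8.48, and 8.61 and 8.55) than on any HCC95 array (at most 8.20 and 7.86).

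SNORD104, a box C/D RNA held by the noncoding gene SNHG25, had the highest mean intensity of its class, at 8.27 and 8.31, 8.79 and 9.02, and 8.70 and 9.004. Its untreated HCC95 values were the lowest of the 6. SNORD31 was at 8.14 and 8.31, 8.94 and 8.25, and 6.93 and 7.16, so that HCC95 lay above H460 throughout. SNORD36A and SNORD36C, both in the ribosomal protein gene RPL7A, ranged from 7.51 to 8.30 and from 6.83 to 7.68. SNORD68 ranged from 7.25 to 8.05. The members with the smallest SD over the 6 arrays among those detected on all of them were a SNORA73B probe (0.0982), SNORA25 (0.119) and SNORD52 (0.132), and the largest was that of SNORA11D (1.09).

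**Figure D2:**
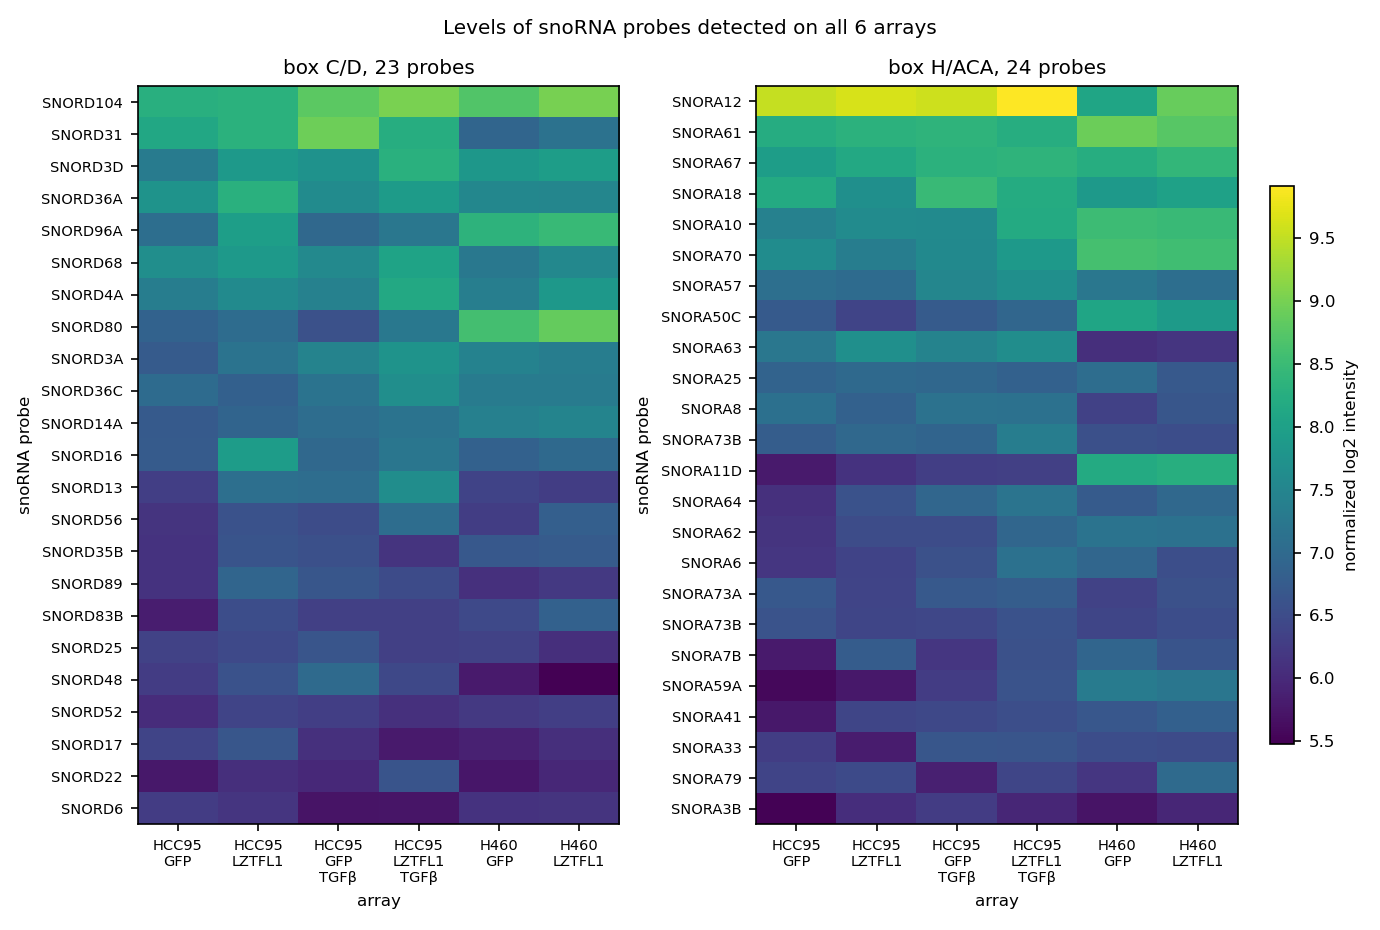
Levels (colour, normalized log2 intensity) of the 23 box C/D and 24 box H/ACA probes detected on all 6 arrays, one row a probe ordered by mean level and one column an array. SNORA11D, SNORD80 and SNORA50C are brighter in the H460 columns, and SNORA63, SNORD31 and SNORA12 in the HCC95 columns.

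All probes for U3, U13 and U17 were detected, and 3 of 4 for U14. U3, which is needed to cut the precursor of small-subunit ribosomal RNA, was read by 3 probes (SNORD3A, SNORD3C and SNORD3D). SNORD3D was at 7.32 and 7.86, 7.74 and 8.30, and 7.83 and 7.94, and SNORD3A at 6.75 and 7.17, 7.46 and 7.75, and 7.45 and 7.35. Both were lowest in untreated HCC95 with GFP. SNORD3C was at 5.56 and 5.75, 5.30 (not detected) and 6.27, and 6.04 and 6.16, and was lowest in HCC95 with GFP and TGFβ. These copies are near-identical, so how the probes divide their RNA is uncertain. SNORD13 (U13), which pairs with small-subunit ribosomal RNA for its acetylation, was at 6.30 and 7.10, 7.06 and 7.65, and 6.36 and 6.28. SNORD14A (U14), which both methylates and helps to cut the small-subunit precursor, was at 6.73 and 6.91, 7.07 and 7.17, and 7.42 and 7.48. U17, a box H/ACA RNA needed for the same cutting steps, was read by 1 probe of SNORA73A and 2 of SNORA73B. The SNORA73B probes ranged from 6.53 to 7.36 and from 6.40 to 6.62, and the LZTFL1 minus GFP difference in untreated HCC95 was 0.18 for the first and -0.21 for the second, so that probes of this gene disagreed in sign.

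The imprinted box C/D groups, repeated arrays that are mostly expressed in brain and have no known ribosomal target in most cases, were mostly not detected. Of 32 probes for SNORD112 to SNORD116, 30 were not detected on any array. The others were SNORD114-2, detected only on the H460 LZTFL1 array (5.39), and SNORD116-27, detected only in untreated HCC95 with GFP (5.53).

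The first comparison asked what the LZTFL1 vector does to the members in each context. With 1 array a group, a single pair has no replicate check. The spread between probes of the same gene is given beside it (SD 0.263, 0.270 and 0.209 on the log2 scale in untreated, TGFβ-labelled and H460 pairs). This spread comes from probes read on the same arrays and holds no variation between cultures, so it is not an error for the vector difference. A value not detected was raised to the lowest detected value of its array, so that such a difference is a bound. In untreated HCC95, 38 of 46 box C/D probes in the pair were higher and 7 lower, with a median difference of 0.26, and 31 of 47 box H/ACA probes were higher and 16 lower, with a median of 0.14. All 17623 probes of that pair had a median of 0.00 and 49.9% were higher.

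In the TGFβ-labelled pair, 25 of 38 box C/D members were higher with LZTFL1 (median 0.16), as were 27 of 38 box H/ACA members (median 0.15). In H460 the counts were 31 of 48 (median 0.11) and 22 of 42 (median 0.05). All probes had medians of 0.01 and 0.00 in these pairs, and 51.2% and 46.7% of them were higher. Members detected on all 6 arrays did not enter through 1 group alone. Of 23 such box C/D probes 21, 16 and 18 were higher in the 3 pairs. Of 24 such box H/ACA probes 16, 18 and 12 were higher. Among all 11661 probes detected on all 6 arrays, 51.0%, 51.6% and 49.1% were higher. With median scaling of the arrays in place of quantile normalization, the medians in untreated HCC95 were 0.11 for box C/D and 0.01 for box H/ACA while that of all probes moved to -0.15.

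The 3 vector pairs share no array. Of members detected on all arrays, 11 of 23 box C/D probes (47.8%) were higher with LZTFL1 in all 3 pairs and 0 were lower in all 3. For box H/ACA these counts were 7 of 24 (29.2%) and 1, SNORA33. Of all 11661 probes detected on all arrays, 15.9% were higher and 14.9% lower in all 3 pairs. The box C/D probes higher in each pair were SNORD104, SNORD14A, SNORD16, SNORD22, SNORD3D, SNORD4A, SNORD56, SNORD68, SNORD80, SNORD83B and SNORD96A. The box H/ACA probes were SNORA11D, SNORA12, SNORA41, SNORA63, SNORA64, SNORA67 and SNORA79. Higher here means any difference above 0, such as 0.01 for SNORD83B and SNORA11D in the TGFβ-labelled pair and 0.04 for SNORD104 untreated. Of the probes in both lists, only SNORD22 (0.30, 0.64 and 0.23) and SNORD56 (0.45, 0.55 and 0.53) lay above the probe spread in all 3 pairs. Across the 47 members the differences of the HCC95 pairs correlated with r = 0.11, against 0.44 across all probes, where probes are not independent replicates.

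Other small nuclear RNAs read by the array had median differences in the same direction that were numerically larger, which was not tested. The 6 SCARNA probes detected on all arrays had median LZTFL1 minus GFP differences of 0.82, 0.89 and 0.76 in untreated HCC95, TGFβ-labelled HCC95 and H460. The 6 probes of spliceosomal snRNA genes (RNU and RNVU) had medians of 1.14, 0.78 and 0.36. Median differences of the box C/D probes detected on all arrays were 0.33, 0.24 and 0.12, and of the box H/ACA probes 0.16, 0.18 and 0.03. All these classes are short, mostly nonpolyadenylated RNAs. The labels name a column clean-up of the RNA, and the part that recovery of short RNA has in these differences was not tested.

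**Figure D3:**
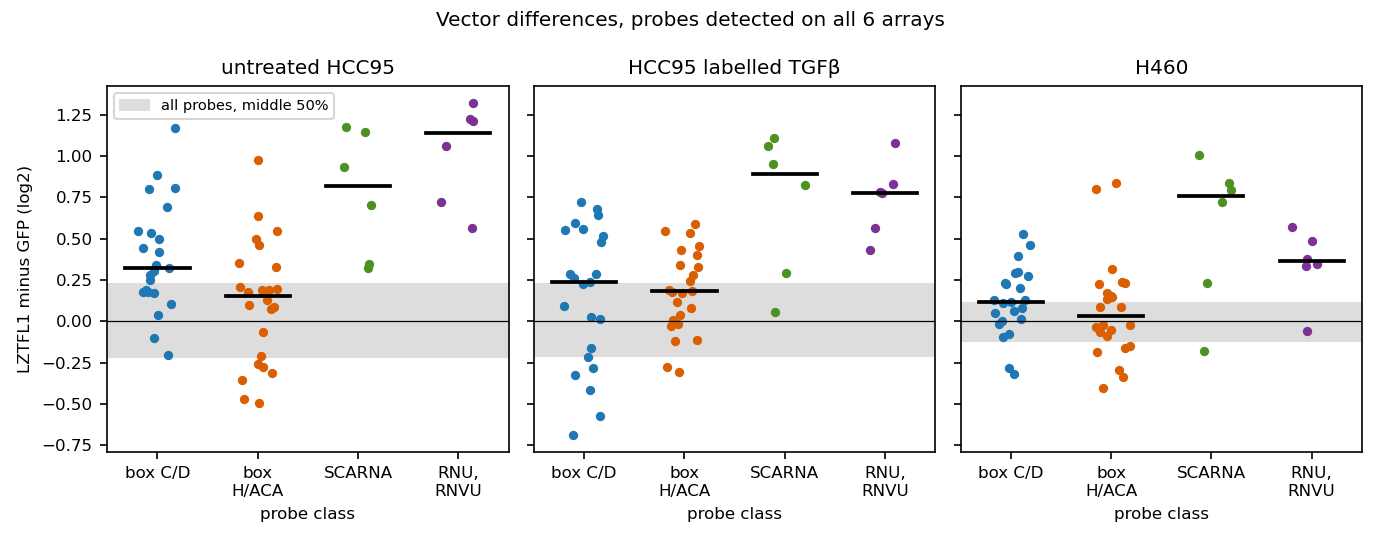
LZTFL1 minus GFP differences (y axis, log2) of probes detected on all 6 arrays in untreated HCC95, TGFβ-labelled HCC95 and H460; each point is a probe, black lines are medians and the grey band holds the middle 50% of all probes. Box C/D medians lie at 0.33, 0.24 and 0.12, below the SCARNA medians of 0.82, 0.89 and 0.76.

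Single members past 2-fold with the vector were few. In untreated HCC95 2 members were higher by 2-fold or more, where 0.409% of all probes were, and 0 lower, where 0.641% were. The 2 became 0 with median scaling, without background correction and with an offset of 50. SNORD16, in the RPL4 gene, was at 6.76 and 7.93, or 2.25-fold higher, but at 6.98 and 7.22 in the TGFβ-labelled pair and 6.86 and 6.99 in H460. SNORA27, in RPL21, was 2.05-fold higher (6.21 and 7.24), with 5.60, not detected, and 5.97 in the TGFβ-labelled pair. After these came SNORA7B (0.97), SNORD96A (0.89), SNORD13 (0.81), SNORD89 (0.80) and SNORD83B (0.69). The lowest were SNORA18 (-0.50), SNORA33 (-0.47), SNORA5B (-0.45, a bound) and SNORA50C (-0.35), and in box C/D SNORD100 (-0.34, a bound).

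In the TGFβ-labelled pair 0 members were 2-fold or more higher or lower, where 0.423% and 0.931% of all probes were. In H460 0 members were, where 0.084% and 0.066% of all probes were. With the processed values there was 1 in the first pair and 4 in H460. Counts past 2-fold under alternative settings are given without the share of all probes. SNORD38A led the box C/D members in both pairs, at 6.06 and 6.99 (0.94) in the first and 5.12, not detected, and 6.35 (at least 1.69-fold) in the second. Its values in untreated HCC95 were 6.04 and 6.48, so that it was higher with LZTFL1 in each context. SNORD4A was next in the TGFβ-labelled pair (0.72), followed by SNORD80 (0.68) and SNORD22 (0.64), an RNA needed for small-subunit ribosomal RNA processing in Xenopus. SNORD31 was lower there by 0.69. In H460 the box H/ACA members SNORA79 (0.84), SNORA59B (0.82) and SNORA12 (0.80) were highest, and SNORD99 (-0.75) and SNORD34 (-0.71) lowest.

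Fitted over the 3 contexts with limma and Benjamini-Hochberg adjustment over 17351 probes, 0 of 93 members tested were called for LZTFL1, where 0.00576% of all probes, a single probe, were. At an unadjusted p under 0.05 there were 16 members, 15 of them higher, or 17.2% against 9.62% of all probes. SNORD38A led with 0.87 (SE 0.204, adjusted p = 0.327), followed by SNORD4A (0.48), SNORD56 (0.51) and SNORA12 (0.42), with adjusted p of 0.450 or 0.451 in limma. On probes detected on every array 0 of 47 members were called, where 0.00858% of all probes were. The error in this fit is the difference between contexts, since no culture is labelled as a repeat of another, and p-values measure that spread.

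Fitted over the 4 HCC95 arrays, 1 of 82 members rose with the LZTFL1 label, where 5.63% of all probes were called (2.51% rose and 3.12% fell). It was SNORD13, at 6.30 and 7.10 untreated and 7.06 and 7.65 with the TGFβ label, a rise of 0.70 (1.63-fold, SE 0.1996, limma adjusted p = 0.0398). Its call was lost with median scaling, without background correction, with a detection p of 0.05 and without the mean-variance trend. In H460 its values were 6.36 and 6.28. Next, and past no threshold, were SNORD16 (0.70, limma adjusted p = 0.0564), SNORD3D (0.55, limma adjusted p = 0.0683) and SNORD38A (0.68, limma adjusted p = 0.0831). When only probes detected on all 4 arrays were fitted, 5 of 54 members (9.26%) rose and 0 fell. These were SNORD13, SNORD16, SNORD3D, SNORD38A and SNORA7B. Of all 13025 probes in that fit 561 rose and 580 fell, or 8.76% called in either direction. In the main HCC95 fit 5 of 11 SCARNA probes and 6 of 8 RNU and RNVU probes rose. Of 4 squamous markers tested with this label, KRT14 and DSG3 fell by 1.60 and 1.04, and KRT5 (0.01) and SOX2 (0.20) were not called. Of 4 epithelial markers, KRT8 rose by 0.76, and EPCAM (0.15), CDH1 (-0.15) and KRT18 (-0.05) were not called. Their part in the snoRNA values was not tested.

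The difference of the LZTFL1 effect between the lines was tested in its own fit, in which 0 of 93 members were called, where 0.202% of all probes were (0.179% higher and 0.0231% lower). On probes detected on every array 0 of 47 were, where 0.309% of all probes were. At an unadjusted p under 0.05 there were 5 members, or 5.38% against 9.57% of all probes. SNORD12C had the smallest p, with an H460 effect 1.13 above that of HCC95 (SE 0.425, limma adjusted p = 0.381), and was not detected in H460 with GFP. For SNORD13 the H460 effect was 0.78 below (-0.78, limma adjusted p = 0.505).

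The second comparison asked what the TGFβ label changed in HCC95. In the GFP pair 26 of 42 box C/D members were higher and 8 lower with the TGFβ label (median 0.23), and of 41 box H/ACA members 25 were higher and 6 lower (median 0.07), the rest being set to 0 as bounds without a direction. With LZTFL1, box C/D members were split, 19 higher and 19 lower of 45 (median 0.00), and 27 of 46 box H/ACA members were higher and 12 lower (median 0.17). All probes had a median of 0.00 in both pairs. In the GFP pair 7394 of all 16419 probes (45.0%) were higher and 7567 lower. With LZTFL1 7557 of 16862 (44.8%) were higher and 7641 lower. Under median scaling the GFP pair medians turned to -0.00464 and -0.12, where that of all probes was -0.28. The GFP and LZTFL1 pairs share no array. The probe spread was 0.245 and 0.279.

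In the GFP pair 0 members were 2-fold or more higher or lower, where 0.597% and 0.274% of all probes were, and 3 were higher with the processed values. The largest values were those of SNORA64 (6.10 to 6.94, 0.84), SNORD31 (8.14 to 8.94, 0.80), SNORA3B (0.76), SNORD13 (6.30 to 7.06, 0.76) and SNORD48 (0.74), and the lowest SNORD6 (-0.55) and SNORA79 (-0.52). In the LZTFL1 pair 1 member was lower by 2-fold or more, where 0.64% of all probes were, and 0 higher, where 0.955% were. It was SNORA27, at 7.24 untreated and 5.97 with the label. The 1 became 0 without background correction and with an offset of 50, and 4 with the processed values. SNORD17 (-0.86), SNORD96A (-0.73) and SNORD16 (-0.71) were lower and SNORD36C (0.85), SNORA59A (0.85) and SNORA33 (0.83) higher. SNORD16 and SNORD96A were thus highest in HCC95 on the untreated LZTFL1 array (7.93 and 7.97).

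In the fit of the treatment label, 1 of 82 members rose with the TGFβ label, where 2.62% of all probes rose, and 1 fell, where 2.35% fell, or 4.98% called in all. SNORD104 rose by 0.61 (1.53-fold, SE 0.159, limma adjusted p = 0.0254), being higher in both pairs (8.27 to 8.79 and 8.31 to 9.02). Under median scaling its effect was 0.38, with a limma adjusted p of 0.289. SNORA27 fell by 0.94 (SE 0.241, limma adjusted p = 0.0244), with a value of 5.60 that was not detected in HCC95 with GFP and TGFβ. It was lower in both pairs. SNORD3A (0.65, limma adjusted p = 0.0501), SNORA64 (0.72, limma adjusted p = 0.0532) and SNORD13 (0.65, limma adjusted p = 0.0614) did not pass. Both calls were lost without the mean-variance trend, with limma adjusted p of 0.157 and 0.118. Fitted on probes detected on all 4 arrays, 5 of 54 members (9.26%) rose and 0 fell. These were SNORD104, SNORD13, SNORD3A, SNORA59A and SNORA64. Of all 13025 probes in that fit 505 rose and 454 fell, or 7.36% called in either direction.

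The third comparison set H460 against HCC95 on the 4 untreated arrays, the comparison with the most called members. The error in its fit comes from the change of the line difference between GFP and LZTFL1 (1 residual degree of freedom). Its p-values measure no spread between cultures. Of 92 members tested, 35 were called (38.0%), where 53.1% of all 16965 probes were. Of these 22 were higher and 13 lower in H460, where 25.4% and 27.7% of all probes were. In box C/D 9 of 46 were higher and 6 lower, and in box H/ACA 13 of 46 were higher and 7 lower. Members detected only in 1 line had to differ. Fitted on probes detected on all 4 arrays, 22 of 58 members were called (37.9%, 15 higher and 7 lower), where 51.2% of all probes were. Under median scaling, which moved the median of all probes in the GFP pair to -0.27, the calls split into 15 higher and 17 lower. The calls of SNORA41, SNORA61, SNORA62, SNORA80A, SNORD104, SNORD14A and SNORD96A, all higher in H460, were lost under that scaling.

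SNORA24, a box H/ACA guide for small-subunit ribosomal RNA held by the noncoding gene SNHG8, differed most. It was at 5.59 and 5.15 in untreated HCC95, the second not detected, 5.79 and 5.22 with the TGFβ label, and 7.87 and 7.99 in H460. It was 4.84-fold higher in H460 with GFP and at least 6.32-fold higher with LZTFL1, and the fit gave 2.56 (SE 0.230, limma adjusted p = 3.39e-07). The H460 values lay above all HCC95 values. SNORA11D, held by the MAGE family gene MAGED4 in the reference table, was at 5.80 and 6.13, 6.31 and 6.32, and 8.18 and 8.27, with no overlap between lines (2.25, SE 0.209, limma adjusted p = 4.68e-07). Near-identical SNORA11 copies exist, and the probe may read more than one.

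SNORD80, a box C/D RNA in the noncoding gene GAS5, was at 6.87 and 7.05, 6.58 and 7.25, and 8.59 and 8.86, again without overlap (1.77, SE 0.190, limma adjusted p = 2.31e-06). SNORD65 was not detected on any HCC95 array (5.16 and 4.65 untreated) and was at 6.78 and 6.72 in H460. It was at least 2.64-fold and 2.60-fold higher there, with a fitted difference of 1.84. Probes detected only in H460 entered the fit through that line, so their calls are no test of the difference. SNORD49A lies in the same host as SNORD65, SNHG29, and was also detected only in H460 (6.27 and 5.83). Others higher in H460 were SNORA59A (1.60), SNORA50C (1.43), SNORA59B (1.16), SNORA70 (1.08), SNORD33 (1.05) and SNORA26 (0.98). SNORA59A and SNORA59B are near-identical copies whose probes cannot be assumed to separate them.

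SNORA63 (E3), a box H/ACA RNA needed for ribosomal RNA processing in Xenopus, led the members lower in H460. It was at 7.23 and 7.69 in untreated HCC95, 7.47 and 7.66 with the TGFβ label, and 6.07 and 6.16 in H460, and fell by 1.35 (2.54-fold, SE 0.219, limma adjusted p = 0.000128). SNORD31 fell by 1.18 (8.14 and 8.31 against 6.93 and 7.16, SE 0.194, limma adjusted p = 0.000139), and SNORD57 by 1.18 (6.73 and 7.15 against 5.34, not detected, and 6.18). SNORA12 fell by 1.10, SNORA28 by 1.05 and SNORA9 by 0.99. For SNORA63, SNORD31 and SNORA12 no H460 value reached the HCC95 range. SNORA77, SNORA74B and SNORA27 were the next lower members, at -0.97, -0.96 and -0.92.

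Between lines, 11 members were higher by 2-fold or more in H460 with GFP and 5 lower, where 11.8% and 11.3% of all probes were. With LZTFL1 the counts were 9 and 4, where 10.9% and 10.7% were. The totals of 16 and 13 became 4 and 3 without background correction and 8 and 7 with an offset of 50, and the 13 became 20 with the processed values. Median differences of box C/D members were 0.17 and 0.08 and of box H/ACA members 0.20 and 0.11, with 0.00 for all probes in both pairs. Under median scaling the GFP medians turned to -0.0749 and -0.0489, where that of all probes was -0.27, and on probes detected on all 6 arrays the box C/D median with LZTFL1 was -0.0138. These pairs had a probe spread of 0.389 and 0.377.

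**Figure D4:**
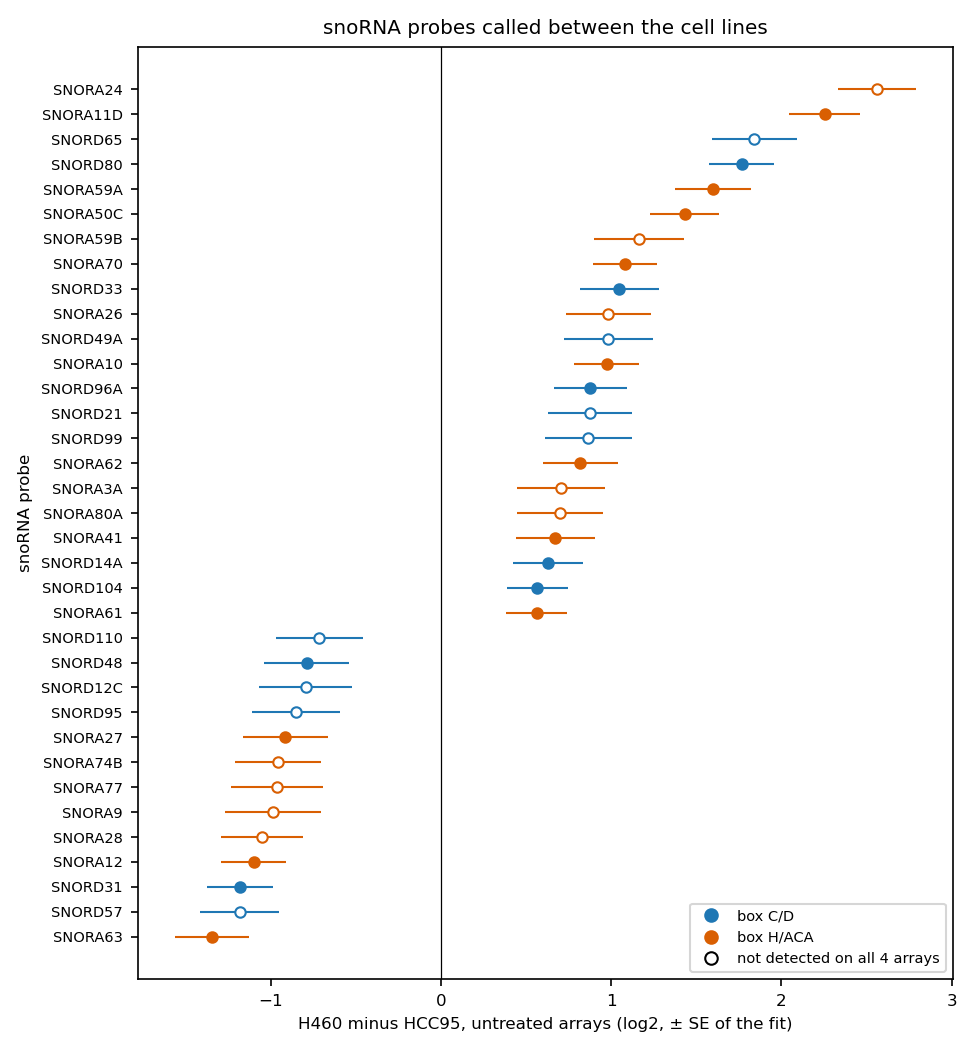
H460 minus HCC95 differences (x axis, log2) of the 35 snoRNA probes called in the limma fit over the 4 untreated arrays; points are fitted differences, bars are ± SE of the fit (n = 4 arrays), blue is box C/D, orange is box H/ACA and open points mark probes not detected on all 4 arrays. SNORA24 (2.56) and SNORA11D (2.25) lie farthest to the right and SNORA63 (-1.35) farthest to the left.

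Because snoRNAs are cut from host transcripts, each member was placed in the gene that spans it in the RefSeq table (GRCh38.p14). Members lay in 71 host genes. Box C/D members were most often in ribosomal protein genes (19 of 56) and long noncoding RNA genes (17), then in other protein-coding genes (11) and genes of translation factors or RACK1 (4), and 5 lay in no other gene, among them SNORD13 and the U3 genes, which have promoters of their own. Box H/ACA members were most often in other protein-coding genes (22 of 54), then in ribosomal protein (14), noncoding (10) and translation genes (5). TAF1D held 5 members, SNHG1 held 4, and NOP56, RPL13A, RPL3 and SNHG12 held 3 each. SNORD57, SNORD56 and SNORD110 lie in NOP56, the gene for a protein of their own particle.

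Members and hosts could be set side by side between the lines for 66 members with 44 hosts that had a detected probe. The signs were the same for 47, and the differences correlated with r = 0.621 across members, which share hosts and arrays and are not independent. The r was 0.480 for 33 box C/D and 0.696 for 33 box H/ACA members. It was 0.812 for 14 members in noncoding hosts and 0.455 for 22 in ribosomal protein genes. Of 25 called members in this set, 13 had a host called in the same direction and 0 in the opposite direction. For the other 12 the host was not called. In the cell line fit 53.1% of all 16965 probes were called in either direction. No share of same signs over other pairs of probes was computed. Whether a snoRNA probe reads the mature RNA, the host precursor or both was not tested.

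Several called members lay in hosts with large differences. SNHG8 itself was at 5.81 and 5.26 in untreated HCC95 and 7.88 and 7.75 in H460, a difference of 2.28 beside 2.56 for SNORA24. EIF4A2, a translation factor gene, was at 14.06 and 13.53 in HCC95 and 11.23 and 11.26 in H460, a difference of -2.55 beside -1.35 for SNORA63. The other member in EIF4A2, SNORA4, was at -0.27 and not called. ATP2B4 was at -2.89 beside -0.97 for SNORA77, and SLC47A1 at 3.10 beside 1.16 for SNORA59B. SNHG1 was at -1.02 beside -1.18 for SNORD31, and NOP56 at -0.89 beside -1.18 for SNORD57.

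Members of 1 host did not all follow it. Of the 4 members in SNHG1 (-1.02), only SNORD31 was called, and SNORD30 (-0.41), SNORD25 (-0.19) and SNORD22 (-0.05) were not. TAF1D, a subunit of a ribosomal RNA transcription factor, was at -0.69, and its members SNORA8 (-0.48), SNORA32 (-0.39), SNORD6 (-0.07), SNORA25 (-0.06) and SNORA18 (0.01) were not called. In NOP56, SNORD57 and SNORD110 (-0.71) fell, whereas SNORD56 was at 0.18. SNORD80 differed by 1.77 while the GAS5 probe, detected on 2 arrays, differed by -0.10. In the vector and TGFβ pairs r between member and host differences was 0.22, 0.47 and 0.05 in the 3 vector pairs (69, 52 and 64 members) and -0.05 and 0.11 in the TGFβ pairs (59 and 65). The signs were the same for 25, 30 and 34 members and opposite for 43, 20 and 25 in the vector pairs, and the same for 25 and 23 and opposite for 19 and 29 in the TGFβ pairs. In the untreated vector pair the median host difference was -0.15.

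**Figure D5:**
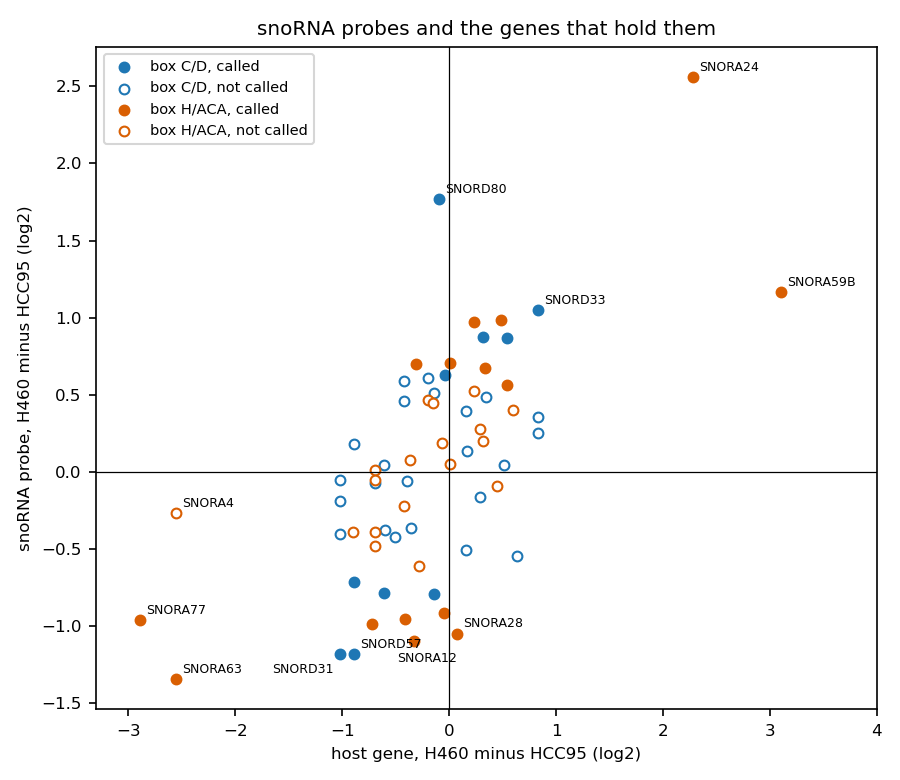
H460 minus HCC95 difference (log2) of the host gene (x axis) and of the snoRNA probe (y axis) in the limma fit over the 4 untreated arrays, 1 point for each of 66 members; filled points are called members. SNORA24 lies at 2.28 and 2.56 and SNORA63 at -2.55 and -1.35, while SNORD80 lies at 1.77 with its host at -0.10.

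Many hosts of snoRNAs are known for a pyrimidine-rich start of transcription, the TOP motif of ribosomal protein genes. The members' own sequences were not used here, so the host starts are shown, from 10 bases before to 20 bases from the RefSeq start on the gene's strand (GRCh38.p14). Capitals mark CTTTC or CTTTTC. The first 6 lines are hosts with such a match and the last 2 are hosts without one, chosen to show both kinds beside members named above.
EIF4A2 chr3:186783567-186783596 plus strand, host of SNORA63: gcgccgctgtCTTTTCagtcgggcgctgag
SNHG12 chr1:28581854-28581883 minus strand, host of SNORA61 and SNORD99: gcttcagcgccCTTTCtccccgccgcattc
RPL13A chr19:49487598-49487627 plus strand, host of SNORD33: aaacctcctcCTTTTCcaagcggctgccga
TAF1D chr11:93741476-93741505 minus strand, host of SNORA18 and SNORD6: aatagccaaccCTTTTCttccgcacggttg
RPL7A chr9:133348208-133348237 plus strand, host of SNORD36A: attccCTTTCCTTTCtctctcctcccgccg
RACK1 chr5:181243887-181243916 minus strand, host of SNORD96A and SNORD95: gCTTTTCtctctctCTTTCactgcaaggcg
SNHG1 chr11:62855866-62855895 minus strand, host of SNORD31: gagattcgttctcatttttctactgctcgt
MAGED4 chrX:52184878-52184907 plus strand, host of SNORA11D: ccgggctgctgtgctggcagcagtaggcga

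Of 66 start windows of 56 host genes in the RefSeq promoter table, 23 held CTTTC or CTTTTC on the gene's strand (34.8%), against 1906 of 35116 windows of all genes (5.43%). On the other strand, where the motifs read GAAAG or GAAAAG, 0 host windows and 3.89% of all windows held one. Hosts called lower (EIF4A2), hosts called higher (RPL13A) and hosts with no called member (TAF1D) all held a match in this 30-base window. A match is a description of letters near an annotated start, and no match says only that these letters are not in this window.

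Genes of the snoRNA particles moved in both directions between the lines. Of 5 core genes of box C/D particles 4 were tested: FBL, which encodes fibrillarin, the methylase, fell by 1.04 in H460, NOP56 fell by 0.89, NOP58 rose by 0.52 and SNU13 was at -0.32 and not called. In box H/ACA particles, DKC1, which encodes dyskerin, the pseudouridine synthase, fell by 0.65, GAR1 rose by 1.06, and NHP2 (-0.12) and NOP10 (0.23) were not called. Of 12 genes of snoRNP assembly and trafficking, RUVBL1 rose by 1.85, PIH1D1 rose by 0.54, RPAP3 fell by 0.66 and 9 were not called. In the LZTFL1 fit over HCC95 the effects of the core genes had medians of 0.14 (box C/D) and 0.01 (box H/ACA), with no call. With the TGFβ label NOP56 fell by 0.60, while SNORD57 and SNORD56, which it holds, were at 0.34 and 0.42 and its other member, SNORD110, at -0.04, none of them called.

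Profiles varied within each class. Over the 6 arrays, the correlation of a probe with the median of the other probes of its class had a median of 0.36 for box C/D (from -0.66 to 0.98, 23 probes) and 0.38 for box H/ACA (from -0.75 to 0.90, 24 probes). The named probes with the profile most like the box C/D median were those of WASHC1 (r = 0.99), ACSS2 (0.98) and C1orf50 (0.97) among 9576 compared. For box H/ACA they were PIH1D1 (r = 0.99), HEBP1 (0.98) and NOXA1 (0.98) among 9575. These are descriptions over 6 arrays of 2 lines.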

How the data were processed

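Total RNA of 2 lung cancer lines, 1 array a group, was hybridised to Illumina HumanHT-12 v4 beadchips. The authors deposited probe signal intensities that were not normalized, and a detection p-value for each, per the file headers. The smallest detection p-value above 0 was 1 in 770. The authors also deposited processed intensities, which by their values are quantile-normalized by a method not stated. GenomeStudio 2011.1 is named per the submitters' processing notes.

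Signals were processed probe by probe with neqc of limma 3.58.1 in R 4.3.3 (background from detection p-values, normexp, offset 16, quantile normalization, log2), and figures were drawn in python 3.11.15. The offset understates folds of dim probes. A probe entered a pair if detected (p under 0.01) on either array, with undetected values raised to the array's lowest detected value. If the undetected array was then the higher, the difference was set to 0. The fits used all values as measured, undetected ones included. The 5 additive limma models had a mean-variance trend and were fitted to probes detected on 2 or more of their arrays, with 1 or 2 residual degrees of freedom and Benjamini-Hochberg adjustment at 0.05 over all probes fitted. The code was tested on simulated data. Precision is limited by the number of arrays, 6 in all. No culture is labelled as a repeat, so the p-values of these fits measure no spread between cultures.

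Named members were the 10 brightest of each class, up to 5 extremes of each class and pair, called members, ribosomal RNA processing and imprinted groups, and genes with several probes. Members and gene lists were chosen with earlier results of these data known. Symbols came from the platform annotation, where 30113 probes had 1 symbol, 8 several and 17202 were not listed. A host was the shortest gene of the RefSeq table that spans the member. The plan asked for the same strand, which could not be checked because that table gives no strand for the snoRNAs used. Alternatives were median scaling, no background correction, an offset of 50, the processed values, other detection rules, no trend, 1 probe a gene and fewer arrays.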

Additional observations from a re-analysis of the deposited data

How the results depend on the processing

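Pairing by replicate number was not possible because every group has a single array with the same number, which cannot serve as a block. The LZTFL1 fit over 3 contexts already pairs arrays by context. The 0 members called for LZTFL1 over 3 contexts became 1 without the H460 pair. The 1 call for LZTFL1 in HCC95 became 0 with median scaling, without background correction, with a detection p of 0.05 and without the trend, 2 without the filter on dim probes, 3 with 1 probe a gene and 5 on probes detected on all arrays fitted. The 2 calls for the TGFβ label became 4 with median scaling (all lower), 1 without background correction, 0 without the trend, 5 with 1 probe a gene and 5 on probes detected on all arrays fitted. The 35 cell line calls became 22 on probes detected on all arrays fitted, and 32 with median scaling, 15 higher and 17 lower. Of the 22, 18 were among the 35. Members past 2-fold in the untreated vector pair (2) became 0 with median scaling, without background correction and with offset 50, and 1 on probes detected on all 6 arrays. With the processed values there was 1 in the TGFβ-labelled vector pair, 4 in H460, 3 and 4 in the GFP and LZTFL1 treatment pairs, and 20 in the LZTFL1 line pair. With a detection p of 0.05 there was 1 in the H460 vector pair. The 1 of the LZTFL1 treatment pair became 0 without background correction, with offset 50 and on probes detected on all 6 arrays. In the line pairs (16 with GFP and 13 with LZTFL1) there were 4 and 3 without background correction and 8 and 7 with offset 50, and 8 with LZTFL1 on probes detected on all 6 arrays. Medians changed sign with median scaling in the GFP treatment pair (-0.00464 for box C/D and -0.12 for box H/ACA) and in the GFP line pair (-0.0749 and -0.0489), where the medians of all probes were -0.28 and -0.27, and the box C/D median of the LZTFL1 line pair was -0.0138 on probes detected on all 6 arrays. The cause was not tested. Shares of all probes under the same settings are not given in this section, so its counts do not set members apart from other probes. The other 159 values stayed near the main ones. Of these, medians moved by less than the probe spread and did not take an opposite sign. The box C/D median of the LZTFL1 treatment pair, 0.00 in the main run, was -0.06 on probes detected on all 6 arrays. Of the values of named members, 306 kept their direction and stayed past the threshold, 18 were no longer past it and 0 reversed. These counts leave out called members that were not fitted under a setting. Dim signal limits the members, whose class medians of 5.90 and 5.99 lie close to the lowest detected values.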
